A study of Mus musculus with 2 samples.

Results

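The genes described here are 10 microRNA genes known from neural tissue, namely Mir137, Mir132, Mir212, Mir153, the copies Mir9-1, Mir9-2 and Mir9-3, and the copies Mir124a-1, Mir124a-2 and Mir124a-3. They were chosen by name, with earlier results of these data known. Each was looked up by Ensembl identifier in the count tables of embryonic mouse intestine. Of the 10 genes, 9 had a row among the 1973 gene rows, and Mir9-1 had none. The tissue was whole intestine of B6NCrl mouse embryos at 14.5 days of development, male and female, with no treatment or mutation stated in the labels. The series held 1 group of 2 biological replicates, so no condition was compared with another. The labels call each sample the intestine of 1 pup but also give the sex as pooled, and the values cannot settle this. Replicate 2 was collected on the 15th day of a month and replicate 1 on the 17th, which means that replicate and day of collection cannot be told apart.

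The enteric nervous system is the network of neurons and glia within the gut wall. It arises from neural crest cells that migrate into the gut of the embryo, spread along it and form ganglia between the muscle layers. MicroRNAs are processed from hairpin transcripts into short RNAs that pair with messenger RNAs chiefly through a seed near their 5′ end and repress them. In the brain, miR-124 is typical of differentiated neurons and miR-9 of neural progenitors and young neurons, miR-137 takes part in neuronal maturation, and miR-132 with miR-212 is induced by neuronal activity through the transcription factor CREB. The tables count microRNA genes alone, so messenger RNAs that mark enteric neurons, such as Ret and Elavl4, were not measured. Whether these microRNAs came from enteric neurons could therefore not be checked against them, and the genes are called here by their names. In whole tissue, fewer cells of a type and less RNA per cell cannot be told apart.

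Of the 10 genes, 7 were matched by symbol to RefSeq microRNA sequences (GRCm38.p6), namely Mir137, Mir132, Mir212, Mir153 and the 3 miR-9 genes. The 3′ arms of the 4 genes that hold their own sequences are shown to compare their seeds, which are bases 2 to 8, in capitals.
miR-137-3p: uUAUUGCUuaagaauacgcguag
miR-132-3p: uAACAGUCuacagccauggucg
miR-212-3p: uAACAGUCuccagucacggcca
miR-153-3p: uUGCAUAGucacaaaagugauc
miR-132-3p and miR-212-3p share 1 seed, AACAGUC. They are identical at 17 of 22 positions and over the first 9 bases, and no other mature microRNA in the table has that seed. No other mature microRNA in the table has the seed of miR-137-3p or that of miR-153-3p. The mature sequences of these 4 genes, both arms, each belong to 1 gene in the table. The counts are per gene and do not separate the arms.

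The 3 miR-9 hairpins are shown because they carry the same mature microRNAs. Capitals mark miR-9-5p and miR-9-3p.
Mir9-1: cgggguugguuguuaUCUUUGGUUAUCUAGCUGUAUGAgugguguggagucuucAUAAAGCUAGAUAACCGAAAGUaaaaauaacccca
Mir9-2: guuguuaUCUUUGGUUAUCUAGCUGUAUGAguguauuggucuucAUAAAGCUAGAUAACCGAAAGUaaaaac
Mir9-3: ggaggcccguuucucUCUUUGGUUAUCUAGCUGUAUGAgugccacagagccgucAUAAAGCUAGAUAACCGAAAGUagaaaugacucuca
Both arms were the same in all 3 hairpins, and the differences lie in the loop and the flanks. Mir9-3 differed most from the others next to the mature arms. Of its 69 windows of 22 bases, about the length of a microRNA, 9 also occurred in another miR-9 hairpin. In Mir9-1 this held for 24 of 68 windows and in Mir9-2 for 24 of 51. The longest stretch that Mir9-1 and Mir9-2 share is 33 bases, and either shares at most 26 with Mir9-3.

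Levels are given as CPM, counts on the gene's own strand scaled to a library total of 1000000 such counts. The total was 3903472 in replicate 2 and 15090126 in replicate 1. Intervals are exact 95% Clopper-Pearson intervals, and SDs are over the 2 libraries. Where a gene had a count of 0, a limit of 3 counts is used, which is 0.769 CPM in replicate 2 and 0.199 in replicate 1. It is not the Clopper-Pearson bound, which for a count of 0 is 0.945 CPM in replicate 2 and 0.244 in replicate 1. Intervals and limits cover counting error only, since PCR copies count as reads. Ligation and PCR favour some small RNAs over others, so levels of different genes are compared as counts and not as molecules.

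Mir137 had by far the most assigned reads of these genes, where reads with several alignments, which the miR-9 and miR-124 copies may lose, were assigned to none. It takes part in neuronal maturation in the brain, and its hairpin (ENSMUSG00000065569; GRCm38 chromosome 3, 118433857 to 118433929, plus strand) lies in an exon of the noncoding transcript Gm26871. Mir137 had 9041 counts in replicate 2 and 30812 in replicate 1. These are 2316 CPM (interval 2269 to 2364) in replicate 2 and 2042 CPM (2019 to 2065) in replicate 1, a mean of 2179 ± 194 CPM (SD, n = 2). Mir137 ranked 72nd of all genes in replicate 2 and 73rd in replicate 1. It held 87.3% of the summed counts of the 9 genes in replicate 2 and 88.2% in replicate 1.

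Mir132 and Mir212, the pair that shares a seed, lie 203 bases apart on chromosome 11 within an intron of the noncoding transcript 1700016P03Rik. Mir212 (ENSMUSG00000065590; 75173388 to 75173478, plus strand) comes before Mir132 (ENSMUSG00000065537; 75173682 to 75173747). Mir132 had 1042 counts in replicate 2 and 3179 in replicate 1, or 267 CPM (interval 251 to 284) in replicate 2 and 211 CPM (203 to 218) in replicate 1. Mir212 had 133 counts in replicate 2 and 467 in replicate 1, or 34.1 CPM (28.5 to 40.4) in replicate 2 and 30.9 CPM (28.2 to 33.9) in replicate 1. Although they are neighbours on 1 strand, Mir132 exceeded Mir212 7.83-fold in replicate 2 (interval 6.54 to 9.46) and 6.81-fold in replicate 1 (6.18 to 7.52). The log2 ratio was 2.87 ± 0.14 (SD, n = 2).

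Mir153 (ENSMUSG00000065538; chromosome 12, 117250817 to 117250885, plus strand) lies in an intron of Ptprn2, which encodes a protein of neuroendocrine secretory vesicles. It had 112 counts in replicate 2 and 413 in replicate 1, or 28.7 CPM (interval 23.6 to 34.5) in replicate 2 and 27.4 CPM (24.8 to 30.1) in replicate 1. Its level was close to that of Mir212. The ratio of Mir212 over Mir153 was 1.19 in replicate 2 (0.917 to 1.54) and 1.13 in replicate 1 (0.988 to 1.29), so both intervals included equal counts.

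The order of the 4 genes was thus Mir137, Mir132, Mir212 and Mir153 in both libraries. Mir137 exceeded Mir132 8.68-fold in replicate 2 (interval 8.14 to 9.26) and 9.69-fold in replicate 1 (9.34 to 10.1). The log2 ratio of 3.20 ± 0.11 (SD, n = 2) was far larger than its gap of 0.16 between the libraries. The steps from Mir137 to Mir132 and from Mir132 to Mir212 exceeded both the counting error and that gap, while the step from Mir212 to Mir153 did not exceed the counting error. An exact test over 2 libraries cannot reach 0.05, so none was run on these ratios.

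**Figure D1:**
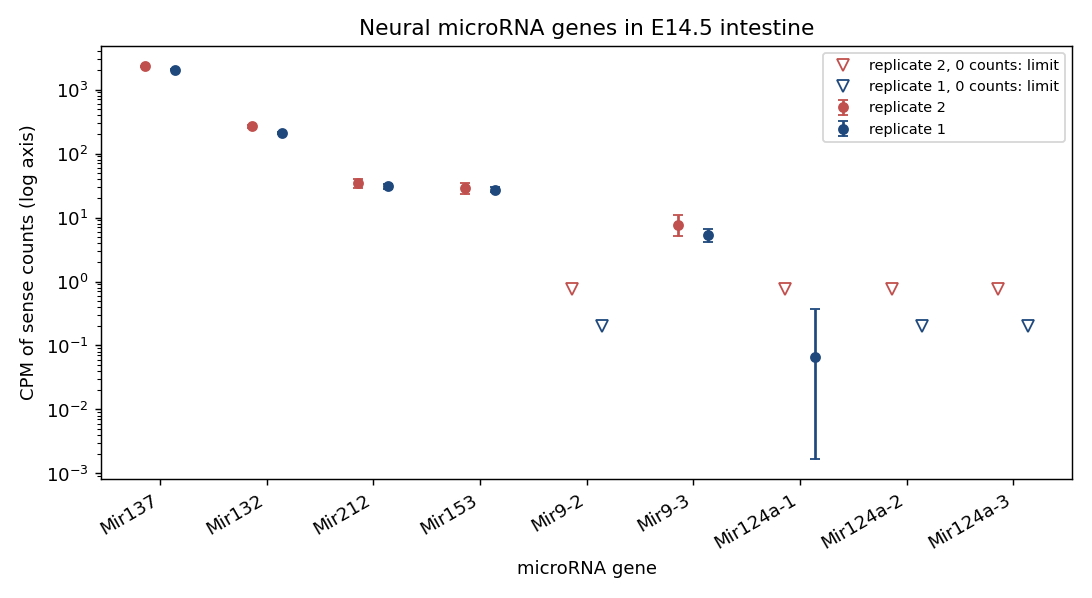
CPM of the 9 genes with a row, on a log axis, for replicate 2 (red) and replicate 1 (blue), with 95% Clopper-Pearson intervals. Open triangles mark the limit of 3 counts used for a count of 0, which is not a Clopper-Pearson bound. Mir137 stands at 2316 and 2042 CPM, Mir9-2 and 2 of the miR-124 genes have no count on their own strand in either library, and Mir9-3 has 7.69 and 5.30 CPM.

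The copies of miR-9 and miR-124 held almost no counts, and these low values are not read as levels of the microRNAs. Reads with several alignments stand in a row of their own in the tables and were assigned to no gene. That row held 26.6% of all reads in replicate 2 and 26.5% in replicate 1, without a record of which microRNAs they came from. Any read that covers no more than a mature miR-9 arm fits all 3 hairpins printed above. The miR-124 genes had no matched sequence, so whether their reads fit several copies was not checked here. The share of miR-9 or miR-124 in those reads was not analysed here.

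Mir9-3 (ENSMUSG00000093238; chromosome 7, 79505264 to 79505353, plus strand, in an intron of Mir9-3hg) was the sole copy whose row held more than 1 count. Mir9-3 had 30 counts in replicate 2 and 80 in replicate 1, or 7.69 CPM (interval 5.19 to 11.0) in replicate 2 and 5.30 CPM (4.20 to 6.60) in replicate 1. Mir9-2 (chromosome 13, 83738814 to 83738885, in an exon of C130071C03Rik) had 0 counts in both libraries. The sequences of the counted reads are not in the tables. Mir9-1 (chromosome 3, 88215598 to 88215686) lies in an intron of the noncoding transcript Gm3764, and at its place the tables list the predicted microRNA gene Gm25641 of the opposite strand. On the strand of Mir9-1 there, 0 reads were recorded in replicate 2 and 11 in replicate 1.

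Mir124a-1 (chromosome 14, 64590657 to 64590741, in an exon of Mir124a-1hg) had 0 counts in replicate 2 and 1 in replicate 1. Mir124a-2 (chromosome 3, 17795662 to 17795770, in an exon of Mir124-2hg) and Mir124a-3 (chromosome 2, 180894040 to 180894107) had 0 counts on their own strand in both libraries. The 5 copies with a row together reached 7.69 CPM in replicate 2 and 5.37 in replicate 1, and the reads at the place of Mir9-1 are not in this sum. The summed level of Mir137, Mir132, Mir212 and Mir153 was 2646 CPM in replicate 2 and 2311 in replicate 1. The ratio of these sums, 344-fold in replicate 2 (interval 241 to 511) and 431-fold in replicate 1 (346 to 542), is one of assigned reads and is too high by an unknown amount if miR-9 or miR-124 reads were left out.

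Mature sequences that belong to more than 1 gene are found throughout the table. Of 34 genes with a row for which all listed mature sequences are of this kind, 8 had at least 10 counts in both libraries (23.5%), Mir9-3 among them. Of 53 genes that share some of their mature sequences, 41 did (77.4%), and of 829 that share none, 285 (34.4%). These shares are a description, since the classes also differ in which microRNAs they hold, and RefSeq sequences were matched for part of the genes.

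**Figure D2:**
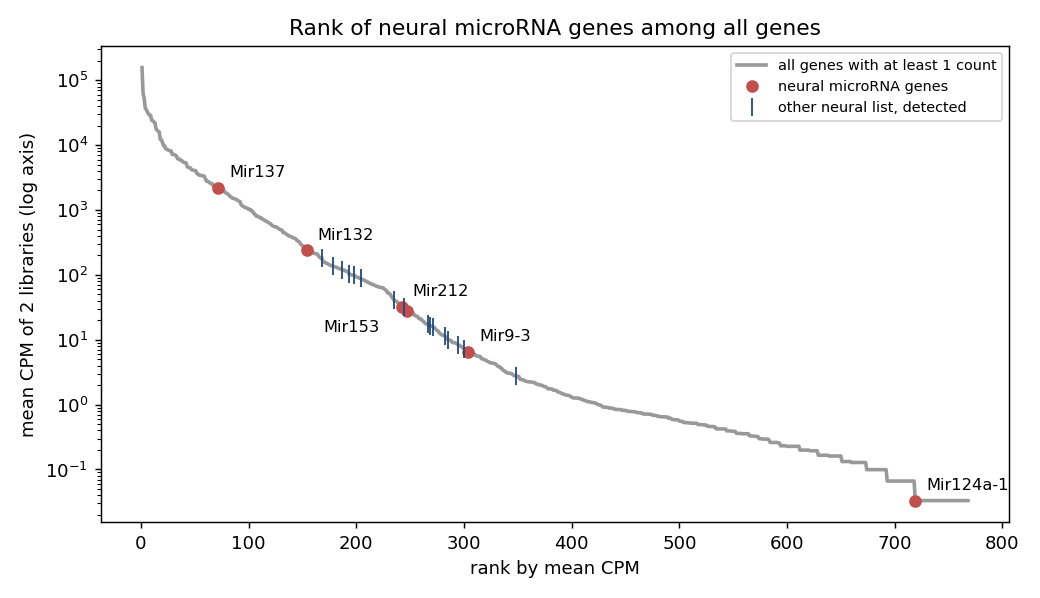
Mean CPM of the 2 libraries on a log axis against the rank of each gene with at least 1 count; grey line, all genes; red points, the neural microRNA genes; blue ticks, detected genes of the other neural list. Mir137 lies at rank 72, Mir132 at 154, Mir212 at 242, Mir153 at 247, Mir9-3 at 304 and Mir124a-1, with 1 count, at 719.

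The counts of these genes lay in the column assigned to their own strand. On the opposite strand, 8 of the 9 genes had 0 counts in both libraries. The remaining gene, Mir124a-3, had 1 such count in replicate 1 and 0 in replicate 2.

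Each of 17 other listed microRNA genes known from the nervous system had fewer assigned reads than Mir137. The list of these 17 genes leaves out the 10 above, and several of them are also known from other tissues. It was chosen with earlier results of these data known. The place of Mir137 above it is therefore a description and no test. Of the 17, 16 had at least 10 counts in both libraries. Their median level over all 17 was 17.3 CPM, against 129 CPM over all 363 genes with at least 10 counts in both libraries, the detected genes. Together they gave 923 CPM in replicate 2 and 867 in replicate 1, and Mir137 alone exceeded this sum 2.51-fold in replicate 2 and 2.35-fold in replicate 1. The median, the sum and the folds are of assigned reads. The median and the sum may be too low and the folds too high, because copies in the list share a mature sequence. These are the copies of miR-128, miR-129, miR-135a, miR-138, miR-218 and miR-219a, while Mir137 shares none. Of the list, 0 genes exceeded Mir132 in mean level of assigned reads and 7 exceeded Mir212, with the same limit.

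The list was led by Mir138-1, a copy of a microRNA known from dendritic spines, at 179 CPM in replicate 2 and 185 in replicate 1. Mir132 exceeded it 1.49-fold in replicate 2 (interval 1.36 to 1.65) and 1.14-fold in replicate 1 (1.08 to 1.20). Both intervals leave out equal counts, but the mean log2 ratio of 0.38 did not exceed its gap of 0.39 between the libraries. A difference beyond the spread of the libraries was therefore not shown. Mir138-1 may also lack reads of the arm it shares with Mir138-2. Mir135b followed with 136 CPM in replicate 2 and 142 in replicate 1. Mir338, known from oligodendrocytes and encoded in an intron of Aatk, had 126 CPM in replicate 2 and 115 in replicate 1. The other genes of the glial list had fewer assigned reads, but they share miR-219a-5p, whose reads may be missing from both. Mir219a-1 had 17.9 CPM in replicate 2 and 16.7 in replicate 1, and Mir219a-2 had 3.59 CPM in replicate 2 and 1.92 in replicate 1.

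Mir218-2, in an intron of the axon guidance gene Slit3, had 102 CPM in replicate 2 and 95.2 in replicate 1. Its copy Mir218-1, in an intron of Slit2, had 16.7 CPM in replicate 2 and 16.2 in replicate 1; miR-218 is known from motor neurons. The brain-enriched pair Mir128-1 and Mir128-2 differed likewise, with 94.5 and 19.0 CPM in replicate 2 and 82.1 and 12.9 CPM in replicate 1. Mir138-2 had 110.2 CPM in replicate 2 and 97.0 in replicate 1. In each of these pairs 1 mature arm is the same in both copies and the other arm is specific to the gene, so reads of the common arm may be missing from both.

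The remaining detected genes lay between 6.66 and 43.6 CPM in replicate 2 and between 7.89 and 38.2 CPM in replicate 1. They were Mir384, Mir383, Mir129-1, Mir488, Mir135a-1 and Mir129-2. Mir135a-2, with 8 counts in replicate 2 and 7 in replicate 1, missed the minimum.

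**Figure D3:**
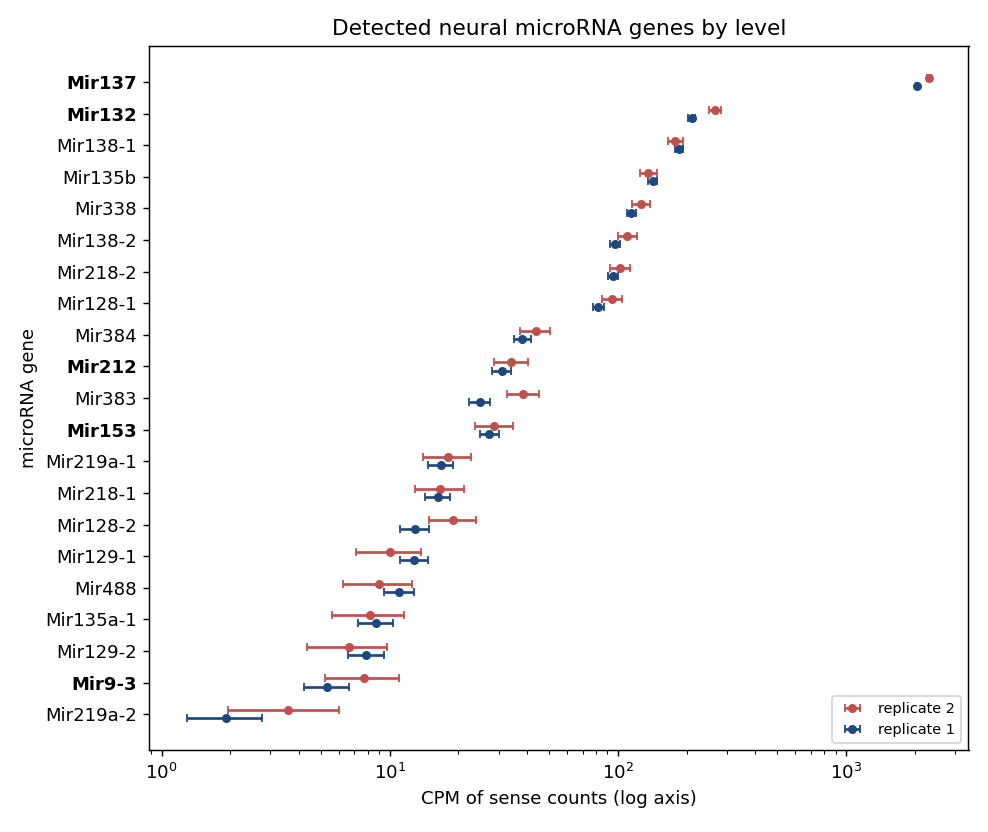
CPM on a log axis of the 5 detected neural microRNA genes (bold names) and the 16 detected genes of the other neural list, ordered by mean level, for replicate 2 (red) and replicate 1 (blue) with 95% Clopper-Pearson intervals. Mir137 stands apart at 2316 and 2042 CPM, and Mir132 lies next to Mir138-1 (179 and 185 CPM).

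MicroRNAs known from other cell types of the gut set the scale for these levels. The smooth muscle gene Mir143 had 146045 CPM in replicate 2 and 167962 in replicate 1, and Mir137 reached 0.0159-fold of it in replicate 2 and 0.0122-fold in replicate 1. With Mir145a, the other gene of the smooth muscle list, the sum was 149642 CPM in replicate 2 and 171529 in replicate 1. Mir145a thus lay far below Mir143 and much nearer to Mir137. The endothelial gene Mir126a had 24174 CPM in replicate 2 and 23478 in replicate 1. The epithelial gene Mir215 had 3954 CPM in replicate 2 and 2933 in replicate 1, which is the same order of magnitude as Mir137. Mir223 of leukocytes, with 472 CPM in replicate 2 and 379 in replicate 1, and Mir451a of erythroid cells, with 374 and 231 CPM, lay between Mir137 and Mir132 in mean level.

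The genes nearest in level were found as the smallest distance of log2(CPM + 1) over the 2 libraries among all genes. With 2 libraries this measures likeness of level and shows no likeness of pattern. For Mir137 they were Mir22 (distance 0.030), Mir140 (0.092) and Mir425 (0.092). For Mir132 they were Mir222 (0.18), Mir185 (0.21) and Mir328 (0.22). For Mir212 they were Mir1247 (0.099), Mir449a (0.20) and Mir1249 (0.22), and for Mir153 Mir1249 (0.077), Mir19b-1 (0.13) and Mir144 (0.23).

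Both Mir137 and Mir132 were slightly higher in replicate 2. Each gene's counts in the 2 libraries were compared with the ratio of the library totals by an exact binomial test (two-sided), and p-values were adjusted by Benjamini-Hochberg over the 363 detected genes. It sets 1 library against the other and says nothing of embryos in general. Mir137 differed 1.13-fold (log2 0.18, counting interval 1.11 to 1.16-fold, adjusted p = 1.72e-24 by the exact test) and Mir132 1.27-fold (log2 0.34, 1.18 to 1.36-fold, adjusted p = 3.7e-10 by the exact test). The log2 difference of Mir137 was 0.099 with edgeR's TMM and 0.089 with DESeq2's size factors, and it passed with both. Mir212 (1.10-fold, interval 0.901 to 1.34, exact adjusted p = 0.476), Mir153 (1.05-fold, 0.843 to 1.29, exact adjusted p = 0.767) and Mir9-3 (1.45-fold, 0.920 to 2.23, exact adjusted p = 0.178) did not pass.

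Of the 5 detected neural genes, 2 passed the test, both higher in replicate 2, where 43.8% of all detected genes passed in either direction and 29.8% passed as higher. The share of 2 in 5 is near that background. All 5 had a positive log2 difference, as had 62% of detected genes, but that of Mir153 turned negative with edgeR's TMM (-0.014) and with DESeq2's size factors (-0.025). The median log2 difference of the 5 was 0.18, against 0.058 over all detected genes. The absolute difference of Mir137 was at percentile 56.2 of detected genes and that of Mir132 at percentile 78.8. Of all genes that passed, 67.9% were higher in replicate 2, against 40.8% with TMM and 37.5% with DESeq2's size factors.

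In the other neural list, 4 of 16 detected genes passed, all higher in replicate 2. They were Mir383 (1.55-fold), Mir128-2 (1.47-fold), Mir128-1 (1.15-fold) and Mir138-2 (1.14-fold). Of all detected genes, 43.8% passed in either direction and 29.8% passed as higher. With TMM the genes of the list that passed were Mir128-2 and Mir383. With DESeq2's size factors they were Mir383 and Mir138-1, of which Mir138-1 was lower in replicate 2. Of all detected genes, 39.1% passed with TMM and 39.7% with DESeq2's size factors. Genes of other cell types also differed in level between the libraries. These values are given without a test, and 62% of all detected genes were higher in replicate 2. Mir375 of endocrine epithelial cells had 8059 CPM in replicate 2 and 3497 in replicate 1, all 4 intestinal epithelial genes were higher in replicate 2 (median log2 difference 0.42), and of the 2 smooth muscle genes Mir143 was lower in replicate 2 and Mir145a was not. Both erythroid genes (median log2 difference 0.50), Mir223 of leukocytes (0.32), the 3 glial genes (median 0.14) and Mir126a of endothelium (0.042) were also higher in replicate 2. The part of all these genes in the differences of Mir137 and Mir132 was not tested.

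**Figure D4:**
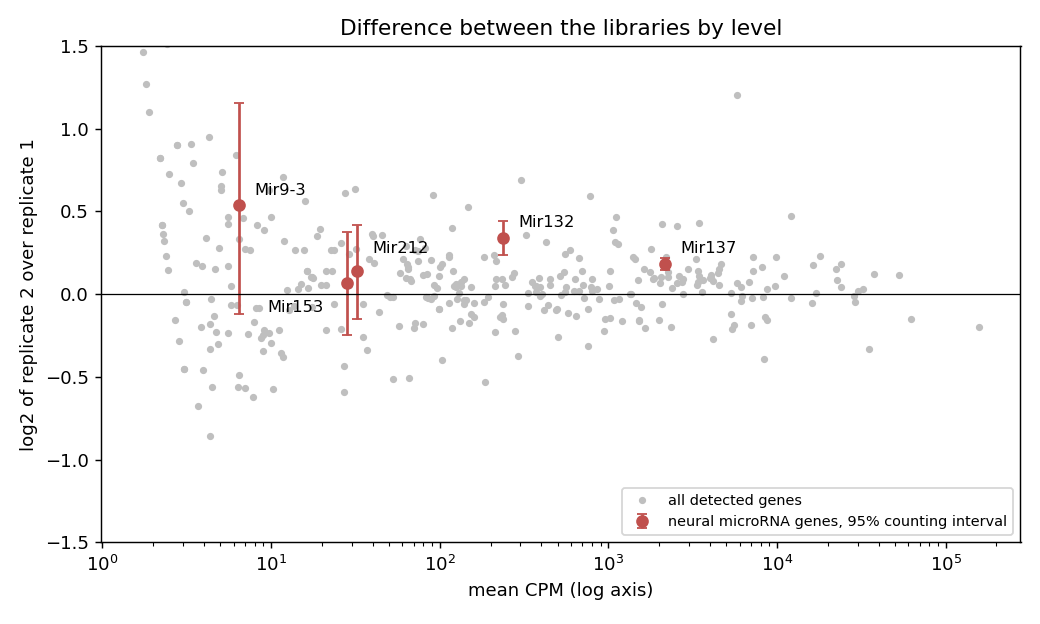
Log2 of replicate 2 over replicate 1 against mean CPM on a log axis for the 363 detected genes (grey; 4 lie outside the axis) and the 5 detected neural microRNA genes (red, with 95% counting intervals). Mir137 (0.18) and Mir132 (0.34) lie above 0 with intervals that leave out 0, while the intervals of Mir212, Mir153 and Mir9-3 include it.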

How the data were processed

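Small RNA below 30 bases from 2 libraries of embryonic intestine was counted per gene. The deposited tables hold whole-number read counts on both strands, on the gene's strand and on the opposite strand. The both-strand column was identified from its values, as it equals the sum of the others in every gene row. That sum does not tell the gene's strand from the opposite strand, and these 2 columns were assigned by their order. The authors aligned the reads to mm10 with GENCODE M4, per the file headers of the accompanying text files; aligner, trimming and counting program are not given in the sources used here. Replicate 1 was 3.87 times deeper. Symbols and positions came from GENCODE M21 (GRCm38), which held 1894 of the 1973 identifiers; for genes whose version differs, the counted interval may differ.

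Own-strand counts were divided by their total over gene rows. Genes with at least 10 counts in both libraries were tested by an exact binomial test (scipy 1.17.1) at an adjusted p of 0.05. The test was also run on simulated counts that held counting error alone, as the test itself assumes. That run cannot show how the test behaves with PCR copies or other spread between libraries. TMM came from edgeR 4.0.16 and size factors from DESeq2 1.42.0. All 10 genes are named, with the 3 genes nearest in level to each of 4, the detected genes of the other neural list, the most abundant gene of each marker list and genes opposite a member. The genes, lists and rules were chosen with earlier results of these data known. Mir142 of the leukocyte list had no row.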

Additional observations from a re-analysis of the deposited data

Results flagged for a closer look

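On the strand of Mir9-1 at its place, recorded as counts opposite Gm25641, replicate 2 had 0 reads and replicate 1 had 11. The 11 reads, 0.729 CPM of the own-strand total, exceed the limit of 3 counts that a count of 0 allows, and they enter no level given above. The count of 0 in the shallower replicate 2 allows up to 0.769 CPM, so a difference between the libraries was not detectable at this depth. Gm25641 itself had 0 counts on its own strand in both libraries.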

How the results depend on the processing

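The total used as divisor set the absolute levels. Over all reads in the table, the mean levels of Mir137, Mir132, Mir212 and Mir153 were 1229.9, 135, 18.4 and 15.8 CPM, their sum was 1399 CPM and the copies of miR-9 and miR-124 summed to 3.68 CPM. Without Mir143 in the total, the 4 levels were 2583, 283, 38.5 and 33.2 CPM and their sum 2938 CPM. Both follow from the divisor alone, and ratios between genes stay as they were. The library difference of Mir153, which passed under no setting, was -0.014 with TMM and -0.025 with DESeq2's size factors, against 0.068. Mir137 and Mir132 passed with TMM, DESeq2's size factors, both strands counted, no minimum count and a minimum of 50 counts (log2 0.089 to 0.18 and 0.25 to 0.34). Of all tested genes, 45.2% passed with both strands counted, 19.8% with no minimum count and 56.3% with a minimum of 50 counts. Of the 16 detected genes of the other neural list, 4 passed, against 2 with TMM and 2 with DESeq2's size factors. Over all detected genes 43.8% passed, against 39.1% with TMM and 39.7% with DESeq2's size factors. Counts opposite Gm25641, added after the data were seen, raised the sum of the copies to 6.89 CPM. Library differences cannot be had without a replicate. No paired analysis was possible because the design holds 1 group. With 2 libraries of unequal depth, genes near 10 counts are the least certain.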
